A study of Mus musculus with 27 samples.

Results

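The genes described here encode core proteins of secreted proteoglycans. They are Vcan (versican), the small leucine-rich proteoglycan genes Dcn (decorin), Bgn (biglycan), Lum (lumican), Fmod (fibromodulin), Prelp (prolargin), Ogn (osteoglycin or mimecan), Aspn (asporin) and Podn (podocan), and Hspg2, which encodes the basement membrane proteoglycan perlecan. They were picked by symbol, 10 of 53379 genes in the count table, as members of this gene group and with earlier results of these data known, and each symbol matched 1 gene. RNA was sequenced from hepatic stellate cells (HSCs) of male Balb/c mice in 7 groups, 27 libraries in all. Healthy mice (n = 4), which received no injection, were 10-12 weeks old. In acute injury, mice of 10-12 weeks received a single dose of carbon tetrachloride (CCl4), a solvent that kills hepatocytes, and HSCs were isolated 24 h (n = 3), 72 h (n = 4) or 7 d (n = 4) later. In chronic injury, mice of 8-10 weeks were injected semi-weekly for 4 weeks, and HSCs were isolated 24 h, 72 h or 14 d after that course (n = 4 each). Each injection was given into the peritoneum at 0.5 µL per gram body weight in mineral oil, so the healthy mice control for neither oil nor injection. Ages differed between the courses, and the chronic mice aged further over the 4 weeks, so age and chronic injury cannot be told apart. Cells were sorted from perfused livers by their ultraviolet signal and lysed without culture, and each library was an individual experiment.

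A proteoglycan is a core protein that carries glycosaminoglycan chains. Versican is a large chondroitin sulfate proteoglycan that binds hyaluronan and swells the provisional matrix of wounds, where ADAMTS proteases cleave it. The small leucine-rich proteoglycans bind fibrillar collagens through their leucine-rich core proteins and set how fibrils grow and pack. Decorin and biglycan carry dermatan or chondroitin sulfate chains, and lumican and fibromodulin carry keratan sulfate. HSCs are the vitamin A-storing pericytes of the liver, which turn into matrix-producing cells after injury, and decorin is among their abundant transcripts.

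Library totals ran from 6314801 to 13052838 counts. A group of 8 libraries reached at most 7580709, namely replicates 1 and 2 of chronic 24 h and chronic 72 h and the whole of chronic 14 d, and the other 19 held at least 10792560, so depth and group cannot be told apart at chronic 14 d. A gene was called where edgeR's quasi-likelihood test gave a Benjamini-Hochberg adjusted p below 0.05 over the 18758 genes tested and the change was over 2-fold. All 10 genes passed the filter on low counts. HSC markers were present in every library, where the summed level of 11 of them was 13746 to 15650 CPM (counts scaled to library size, with TMM factors) in healthy mice and 5869 to 10069 in the injured groups. Markers of other cells were present as well. In bulk samples, fewer cells of a type and less RNA per cell cannot be told apart.

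Per length, the family was uneven. In RPKM, which is CPM divided by exon length in kilobases, decorin stood at 3018 ± 1143 (SD, n = 4) in healthy HSCs, prolargin at 1909 ± 281, lumican at 1718 ± 248 and biglycan at 599 ± 86.3. These 4 genes made up nearly all of the summed RPKM of the family in each group. The other 6 healthy means ran from 25.7 RPKM for Ogn down to 0.312 for Aspn and 0.152 for Vcan, the lowest of the 10. The 10 genes together took 1.71 to 3.67% of the library size after TMM scaling.

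The order at the top changed with injury. Decorin held 39.9% ± 9.96 (SD, n = 4) of the summed RPKM in healthy HSCs and lumican 24.1% ± 4.87. In healthy replicate 3 decorin (1311 RPKM) was below prolargin (1674) and lumican (1581). In acute 24 h replicate 2 it (1644 RPKM) was below lumican (1676). At acute 72 h lumican held 41.4% ± 5.0 and decorin 23.6% ± 5.79. Lumican was also first by mean level at acute 7 d (45.6% ± 3.07), chronic 24 h (45.9% ± 4.57) and chronic 72 h (50.1% ± 5.24). At chronic 14 d decorin was first again, with 42.6% ± 5.61 against 27.3% ± 3.25 for lumican. Prolargin fell from the second rank in healthy HSCs to the fourth at acute 24 h, where its share was 9.41% ± 4.18.

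**Figure D1:**
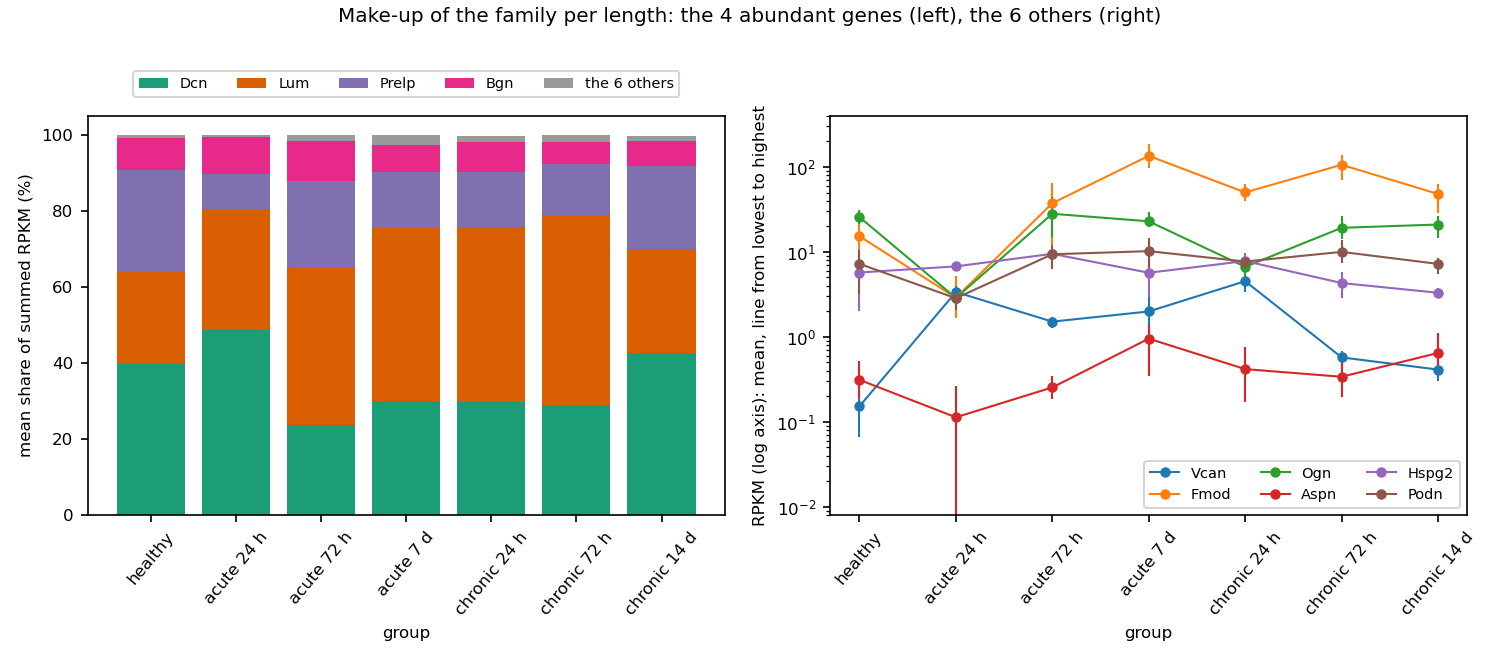
Left, mean share of the summed RPKM of the 10 genes in each group, stacked to 100%. Right, mean RPKM of the other 6 genes on a log axis, with a line from the lowest to the highest library; the Aspn line at acute 24 h runs to the bottom of the axis because its lowest library held 0 counts. By group mean, decorin leads in healthy, acute 24 h and chronic 14 d HSCs and lumican in the other 4 groups, and Fmod is the highest of the 6 from acute 72 h on.

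The promoter windows of 3 genes are printed because these genes moved most and in different ways: Vcan rose at 24 h, while Fmod and Ogn fell at acute 24 h and were higher later. Each holds the 250 bases before the RefSeq transcription start, GRCm38.p6, read 5′ to 3′ on the strand of the gene. The Vcan window is chr13:89742513-89742762 (minus strand), the Fmod window chr1:134037004-134037253 (plus strand) and the Ogn window chr13:49607765-49608014 (plus strand). Capitals mark matches on either strand to a GC box (GGGCGG), the TEAD motif (GGAATG) or the TATA motif (TATAAA).
Vcan: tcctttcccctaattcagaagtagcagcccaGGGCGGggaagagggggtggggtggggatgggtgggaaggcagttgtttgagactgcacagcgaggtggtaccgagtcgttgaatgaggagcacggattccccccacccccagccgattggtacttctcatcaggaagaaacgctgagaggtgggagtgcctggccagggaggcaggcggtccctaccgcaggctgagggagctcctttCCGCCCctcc
Fmod: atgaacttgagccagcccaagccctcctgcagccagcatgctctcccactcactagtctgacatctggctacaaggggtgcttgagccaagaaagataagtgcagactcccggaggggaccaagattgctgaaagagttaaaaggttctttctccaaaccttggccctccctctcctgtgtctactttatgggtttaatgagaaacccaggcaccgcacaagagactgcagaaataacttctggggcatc
Ogn: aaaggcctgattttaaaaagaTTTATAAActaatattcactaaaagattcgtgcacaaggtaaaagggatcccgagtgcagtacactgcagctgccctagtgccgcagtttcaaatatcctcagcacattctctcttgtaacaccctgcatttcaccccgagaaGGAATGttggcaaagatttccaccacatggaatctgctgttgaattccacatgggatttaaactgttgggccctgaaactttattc

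The Vcan window held 2 GC boxes, 219 and 10 bases before the start, and had 62.4% G and C, against a median of 52.4% over 32851 windows of the same length. The Ogn window held 1 TEAD motif, 86 bases before the start, and overlapping TATA motifs on both strands. The bases just after this RefSeq start were not found in a GENCODE M21 transcript of Ogn, unlike those after the starts of the other windows. The Fmod window held no match. Windows were found for 8 of the 10 genes, Dcn and Lum being without an entry. A GC box was present in the windows of Vcan, Bgn and Hspg2, and in 32.7% of all windows. Podn had more than 1 window. The one at chr4:108031955-108032204 held a GC box, and the one at chr4:108030987-108031236 held no match. A TEAD motif was found in the Ogn window alone of the members and in 12.6% of all windows. A TATA motif was found in the windows of Ogn and Aspn and in 12.4% of all windows. The AP-1 motif (TGANTCA), which 6.75% of all windows hold, and the SMAD motif (GTCTAGAC), which 0.167% hold, were in none of the members' windows. Matches are descriptions of these letters and not of binding.

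Acute injury was compared with healthy HSCs at 3 times, to follow the course after a single dose. At acute 24 h, versican was 22.2-fold higher and 4 leucine-rich proteoglycans were lower, namely Ogn (8.93-fold), Fmod (5.29-fold), Prelp (4.05-fold) and Podn (2.54-fold). That is 1 gene called higher, where 9.41% of all tested genes were called higher, and 4 called lower, where 12.5% were. The median log2 fold change of the 10 genes was -0.81, against -0.12 over all genes tested. Markers of cell types moved at the same time. Of 9 hepatocyte markers, 5 were called lower and none higher (summed 599 to 757 CPM against 769 to 2939 in healthy HSCs). Of 8 sinusoidal endothelial markers, 5 were lower and Lyve1 higher (63 to 86.2 against 119 to 400 CPM), and of 11 HSC markers 5 were lower and none higher. Of 8 macrophage markers, 2 were lower and Marco higher (73 to 94.3 against 100 to 418 CPM), and of 8 monocyte and neutrophil markers 3 were higher and Ptprc lower. Their part in these differences was not tested. At acute 72 h, Vcan alone was called higher (background 8.23%) and Dcn alone lower (4.33%). At acute 7 d, Vcan and Fmod were called higher (9.23%) and none lower (5.64%).

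Chronic injury was compared with the same 4 healthy libraries, at the end of the 4-week course and during recovery. At chronic 24 h, Vcan and Fmod were called higher (background 11.2%), and Dcn, Prelp and Ogn lower (8.11%). Of 11 HSC markers, 7 were lower there and Pdgfrb higher, and of 8 endothelial markers 4 were lower. Called higher were 6 of 10 portal fibroblast, 3 of 5 smooth muscle, 4 of 8 macrophage and 7 of 8 monocyte and neutrophil markers, and mesothelial Wt1. Clec3b, Plac8 and Cyp2e1 of these and the hepatocyte lists were lower. The part of these markers was not tested. At chronic 72 h, Vcan, Fmod and Lum were called higher (7.88%) and none lower (4.2%). At chronic 14 d, Vcan and Fmod were called higher (4.55%) and none lower (1.17%), and neither call held under every alternative. The median log2 fold changes of the 10 genes were 0.23, -0.10 and -0.22 at the 3 times, against -0.03, 0.00 and -0.03 over all genes. The 6 comparisons share the healthy libraries.

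**Figure D2:**
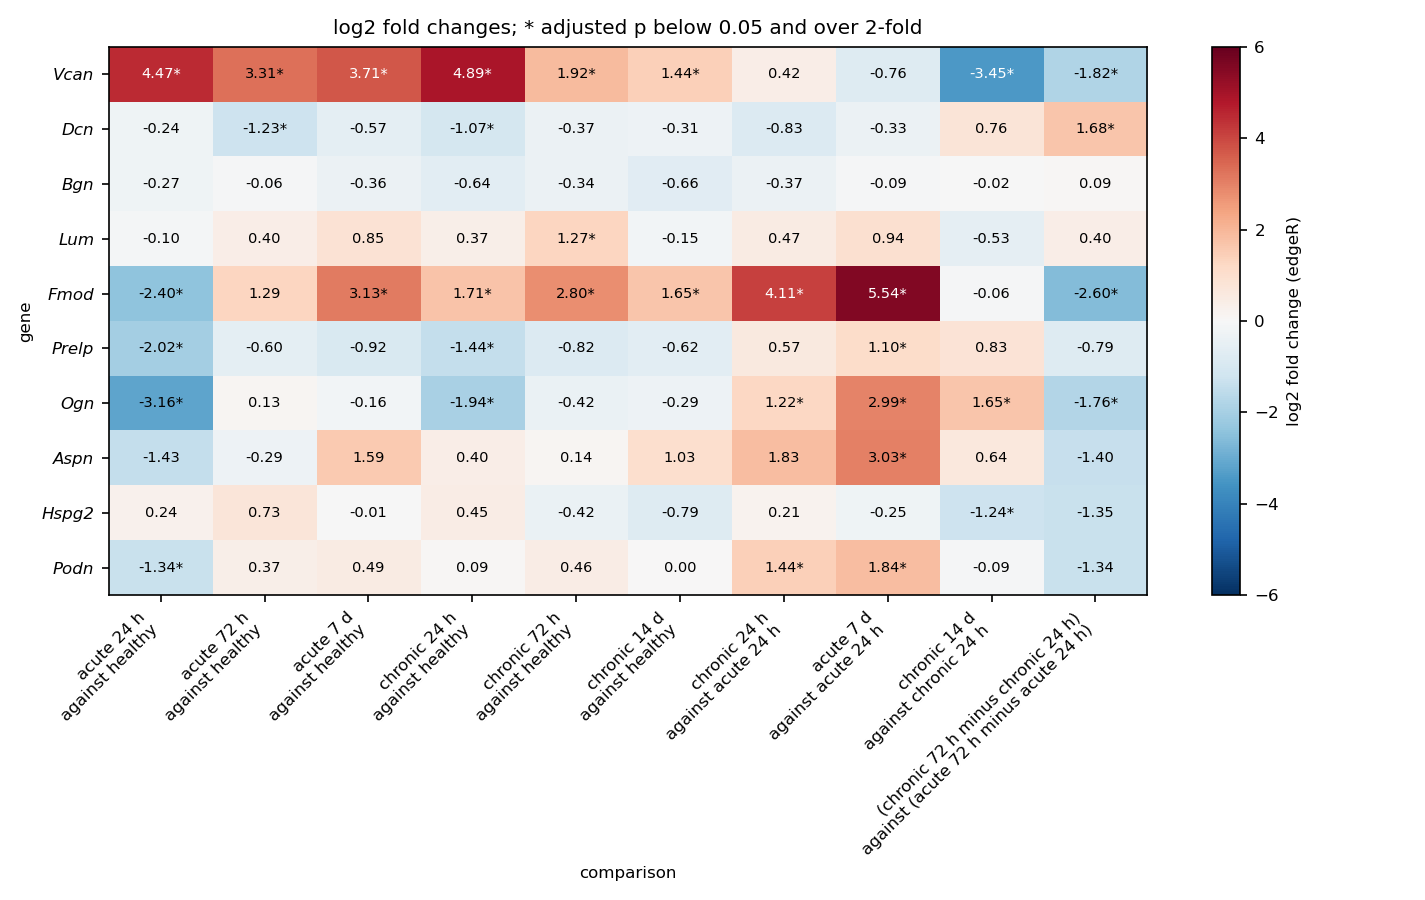
Log2 fold change of each gene (rows) in the 10 comparisons (columns), red for higher and blue for lower, with an asterisk for a call. Vcan is positive in the 6 comparisons with healthy HSCs, from 1.44 to 4.89, and Fmod turns from -2.40 at acute 24 h to 3.13 at acute 7 d.

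Versican was nearly absent from healthy HSCs, at 2.27, 3.8, 1.77 and 0.953 CPM in the 4 libraries (11 to 39 counts). At acute 24 h it stood at 67.2, 33.2 and 45.7 CPM, at acute 72 h at 22.1, 24.8, 21.8 and 18.5 CPM, and at acute 7 d at 44.7, 32.4, 25.2 and 12.8 CPM. In chronic injury it stood at 82.3, 69.6, 60.9 and 48.6 CPM at 24 h, 9.87, 6.43, 9.96 and 6.89 CPM at 72 h, and 4.32, 4.34, 8.54 and 6.61 CPM at 14 d. Every injured library lay above every healthy one. By group mean the order ran from chronic 24 h through acute 24 h, acute 7 d and acute 72 h to chronic 72 h, chronic 14 d and healthy. Neighbouring groups in that order overlapped, except that acute 72 h lay above chronic 72 h and chronic 14 d above healthy.

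The log2 fold change of Vcan against healthy was 4.47 at acute 24 h (SE 0.40, adjusted p 3.44e-08), 3.31 at acute 72 h (SE 0.38, adjusted p 1.71e-06) and 3.71 at acute 7 d (SE 0.38, adjusted p 4.78e-07). It was 4.89 at chronic 24 h (SE 0.40, adjusted p 5.07e-09), a 29.8-fold difference, 1.92 at chronic 72 h (SE 0.37, adjusted p 0.00063) and 1.44 at chronic 14 d (SE 0.37, adjusted p 0.0162). The last call was lost with depth as a term (1.22), with only the 2 groups in the model (1.53), without healthy replicate 3 (1.35) and without chronic 14 d replicate 3 (1.26). With the level of portal fibroblast markers as a term, described with Fmod, the calls at chronic 72 h (1.83, adjusted p 0.465) and chronic 14 d (1.40, adjusted p 0.18) were lost. From chronic 24 h to chronic 14 d versican fell by 3.45 on the log2 scale (SE 0.37, adjusted p 7.6e-07), or 10.9-fold. Chronic and acute 24 h differed by 0.42, with a 95% interval from -0.32 to 1.17, which did not pass the test.

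Monocytes also make versican, so their markers are given beside it. The summed level of 8 monocyte and neutrophil markers was 124 to 219 CPM in healthy HSCs, 209 to 308 at acute 24 h, 252 to 275 at acute 72 h and 365 to 511 at acute 7 d, where it was highest. In chronic injury it was 93.7 to 305 CPM at 24 h, 247 to 395 at 72 h and 160 to 239 at 14 d. Of the 8, 3 were called higher and Ptprc lower at acute 24 h, 5 were higher at acute 72 h, 7 at acute 7 d and 6 at chronic 72 h and at 14 d. At chronic 24 h, 7 were higher and Plac8 was lower. F13a1, Chil3 and S100a8 had no count in any healthy library. Over the 27 libraries, which share their groups, the log2 sum of this list and log2 Vcan correlated at 0.20, and at -0.03 after group means were removed. Its part in the rise of versican was not tested. The antisense gene Gm4117 lies over an intron of Vcan and had 42 to 43 counts in the healthy libraries and 40 to 73 at acute 24 h. It shares no exonic base with Vcan, and the strand used in counting is not given in the sources used here.

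Decorin, which binds collagen and sequesters TGF-β, was by mean level the most abundant member of the family in healthy HSCs. It was called higher than healthy in no injured group. It stood at 20919, 20131, 7652 and 21763 CPM in healthy HSCs, 18890, 9596 and 16210 CPM at acute 24 h and 8814, 4942, 8408 and 7944 CPM at acute 72 h. Healthy replicate 3 was far below the other 3 healthy libraries and made the ranges overlap. Against healthy, Dcn was 2.34-fold lower at acute 72 h (log2 -1.23, SE 0.26, adjusted p 0.00147) and 2.10-fold lower at chronic 24 h (log2 -1.07, SE 0.26, adjusted p 0.00292). Without healthy replicate 3 these values were -1.48 and -1.32. The chronic 24 h change fell to 2-fold or less without any 1 of the other 3 healthy libraries (-0.98, -1.0 and -0.95) or without chronic 24 h replicate 4 (-0.99). With the portal fibroblast marker term described with Fmod it was -1.07 and not called (adjusted p 0.23).

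In chronic injury decorin was at 8649, 9445, 8533 and 6953 CPM at 24 h, 12413, 14647, 12912 and 14381 CPM at 72 h, and 16569, 14531, 10570 and 15205 CPM at 14 d. The 72 h and 14 d libraries all lay above those of 24 h. The difference from chronic 24 h to chronic 14 d was 0.76 on the log2 scale (SE 0.26, adjusted p 0.036), under the 2-fold limit. At acute 7 d decorin was at 9594 to 13338 CPM, which did not pass the test against healthy (log2 -0.57, 95% interval -1.10 to -0.03, adjusted p 0.117). Without healthy replicate 3 this was -0.82 (adjusted p 0.00947), past the p threshold and under 2-fold. Chronic 72 h against healthy went likewise from -0.37 (adjusted p 0.331) to -0.62 (adjusted p 0.0499).

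Biglycan, the close relative of decorin that is also known as a signal of tissue damage, was the steadiest of the 4 abundant genes and was called in none of the 10 comparisons. Its 4 healthy libraries held 4139, 3908, 3626 and 2925 CPM. The chronic 24 h libraries held 2641, 2235, 2406 and 2094 CPM and the chronic 14 d libraries 2374, 2127, 2268 and 2460 CPM, in both groups below all healthy libraries. The log2 differences were -0.64 (SE 0.14, adjusted p 0.0011) and -0.66 (SE 0.14, adjusted p 0.00374), which passed the p threshold and not the fold. Asporin, the third gene of that class and a binder of collagen and TGF-β, was at 0 to 3.23 CPM in all 27 libraries, with 0 to 40 counts. It was called only for acute 7 d (3.23, 0.82, 1.93 and 2.99 CPM) against acute 24 h (0.623, 0 and 0.176 CPM), by 3.03 on the log2 scale (SE 0.77, adjusted p 0.00321). The acute 24 h libraries held 7, 0 and 2 counts, so that size is poorly fixed.

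Lumican, a keratan sulfate proteoglycan that spaces collagen fibrils, rose later than versican. It was at 4494, 3553, 3871 and 4900 CPM in healthy HSCs and 4220, 4102 and 3488 CPM at acute 24 h, which overlapped. At chronic 72 h it reached 7786, 8427, 10972 and 13335 CPM, above all libraries of healthy and chronic 24 h HSCs. This was 2.41-fold over healthy (log2 1.27, SE 0.17, adjusted p 1.19e-05). At acute 7 d the libraries held 8516, 6536, 7570 and 7675 CPM, a log2 difference of 0.85 (SE 0.17, adjusted p 0.00072) that stayed under 2-fold. At chronic 14 d it was back at 3595, 3521, 4102 and 3912 CPM, within the healthy range except for 1 library just below it, and the log2 difference from chronic 24 h was -0.53 (SE 0.17, adjusted p 0.0252), again under 2-fold.

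Fibromodulin, the nearest relative of lumican, binds collagen and guides its cross-linking. As a ratio of highest to lowest, its levels had the widest range, from 5.44 to 613 CPM, among the 9 genes with a count in every library. It stood at 23.1, 54.3, 101 and 24.3 CPM in healthy HSCs and fell to 17, 6.25 and 5.44 CPM at acute 24 h. At acute 72 h the libraries held 57.8, 39.5, 184 and 213 CPM, and at acute 7 d 322, 442, 613 and 399 CPM. The acute 24 h libraries lay below all healthy ones and those of 7 d above them. The log2 differences from healthy were -2.40 (SE 0.58, adjusted p 0.00261) at acute 24 h and 3.13 (SE 0.53, adjusted p 0.000158) at acute 7 d, and 1.29 (95% interval 0.26 to 2.32, adjusted p 0.0671) at acute 72 h, where it did not pass. It passed there with library size alone (1.40), in DESeq2 (1.24), and without healthy replicate 3 (1.87), acute 72 h replicate 1 (1.52) or replicate 2 (1.58). From acute 24 h to 7 d Fmod rose 46.4-fold (log2 5.54, SE 0.68, adjusted p 1.5e-06).

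In chronic injury Fmod was at 147, 130, 209 and 177 CPM at 24 h, 297, 234, 458 and 420 CPM at 72 h, and 147, 187, 207 and 93.9 CPM at 14 d. All libraries of 24 h and 72 h were above the healthy ones, and 1 library of 14 d fell among them. The log2 differences from healthy were 1.71 (SE 0.50, adjusted p 0.012), 2.80 (SE 0.52, adjusted p 0.000489) and 1.65 (SE 0.50, adjusted p 0.043). The 14 d call was lost with no filter on low counts (1.67), with depth as a term (2.25), with only the 2 groups in the model (1.72), and in 6 of 8 fits that left out 1 library (1.41 to 1.68 in those 6). Chronic 24 h lay 17.3-fold above acute 24 h (log2 4.11, SE 0.63, adjusted p 6.28e-05).

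Fmod moved with markers of portal fibroblasts, the collagen-producing cells around the portal tracts. The summed level of 10 such markers was 169 to 272 CPM in healthy HSCs, 91.4 to 153 at acute 24 h, 287 to 794 at acute 72 h and 824 to 1118 at acute 7 d. It was 626 to 1073 CPM at chronic 24 h, 1076 to 2074 at chronic 72 h and 364 to 697 at chronic 14 d. All 10 had counts in each group. Of the 10, 3 were called lower at acute 24 h, and 5 were called higher at acute 72 h, 7 at acute 7 d, 6 at chronic 24 h, 9 at chronic 72 h and 6 at chronic 14 d. Clec3b was called lower at acute 72 h and chronic 24 h. Over the 27 libraries the log2 sum and log2 Fmod correlated at 0.94, and at 0.84 after group means were removed. For Podn these values were 0.70 and 0.36, for Lum 0.71 and 0.18, for Ogn 0.39 and 0.61, and for Vcan 0.14 and 0.05. Within acute 72 h, replicates 1 and 2 were low in these markers (357 and 288 CPM), Fmod (57.8 and 39.5) and Ogn (38.1 and 45.1). Replicates 3 and 4 were higher in each (640 and 794, 184 and 213, and 112 and 92.5 CPM). The part of this split in the within-group values was not tested.

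With the log2 sum of these markers as a term, chosen after the data were seen, the Fmod difference from healthy was -1.05 at acute 24 h, still called (adjusted p 0.0319) but smaller than the -2.40 without the term. It was 0.12 at acute 7 d, -1.12 at chronic 24 h, -1.09 at chronic 72 h and -0.21 at chronic 14 d, with no call. The term follows the groups: with it, 39 of 18758 genes were called higher and 6 lower at chronic 72 h, against 1479 and 788 without it. Lum at chronic 72 h was then 1.03 and not called. Vcan kept its calls at acute 24 h, 72 h, 7 d and chronic 24 h and lost those at chronic 72 h and 14 d, and the other lost calls were Podn at acute 24 h and Dcn and Prelp at chronic 24 h. Injury and marker level cannot be told apart in this design. Mesothelial markers also moved with Fmod, from 6.07 to 18.1 CPM in healthy HSCs to 101 to 151 at chronic 72 h, with a correlation of 0.81 over all libraries and 0.16 within groups, though of 6 tested only Wt1 was called there.

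**Figure D3:**
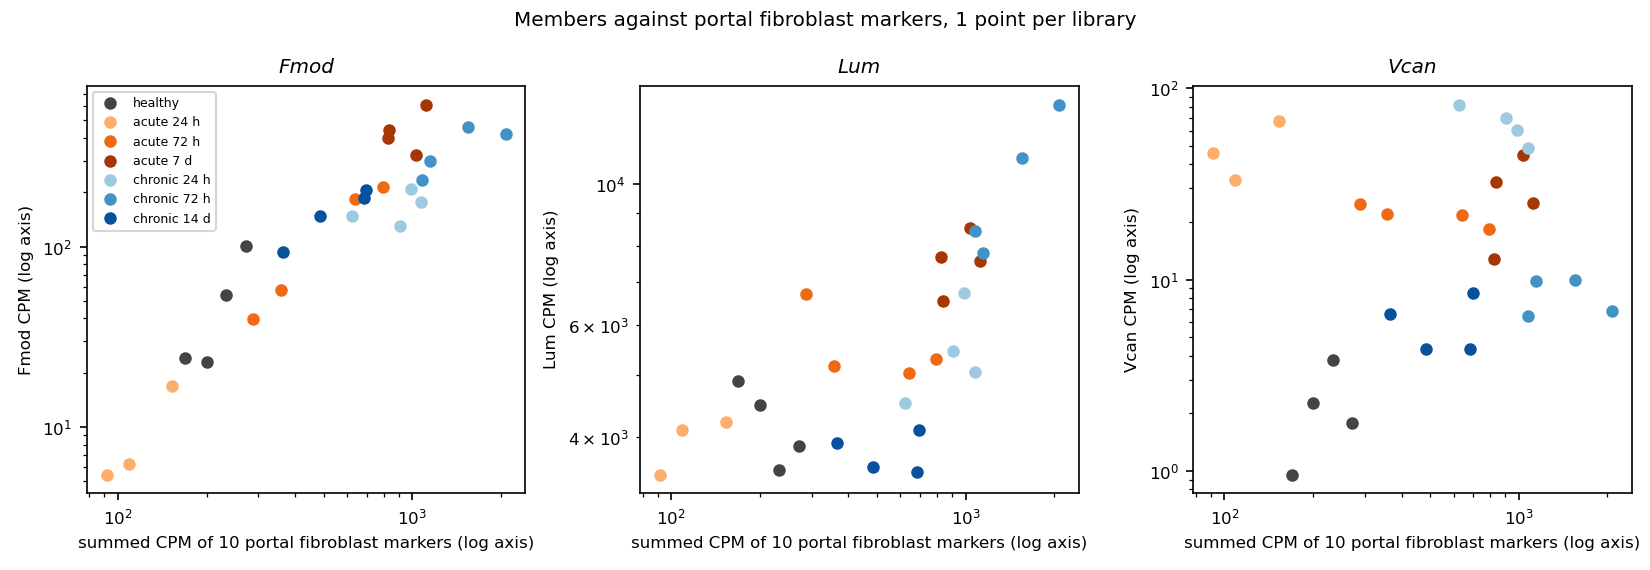
CPM of Fmod, Lum and Vcan (vertical, log axis) against the summed CPM of 10 portal fibroblast markers (horizontal, log axis), 1 point per library, coloured by group. Fmod rises with the markers from 5.44 to 613 CPM, and Vcan is high in acute 24 h libraries whose marker sums, 91.4 to 153 CPM, are the lowest.

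Prolargin, which anchors basement membranes to collagen, was lower in every injured library than in any healthy one. The healthy libraries held 6277, 8308, 6053 and 6969 CPM and those of acute 24 h 955, 1799 and 2360 CPM. The chronic 24 h libraries held 2888, 2126, 2566 and 2564 CPM. The log2 differences were -2.02 (SE 0.24, adjusted p 1.1e-06) and -1.44 (SE 0.21, adjusted p 1.33e-05). With the portal fibroblast marker term the first was -2.26 and still called, and the second was -0.95 and not called (adjusted p 0.134). Later levels lay between, at 4231 to 4940 CPM at acute 72 h, 2627 to 4339 at acute 7 d, 3167 to 4810 at chronic 72 h and 3876 to 4811 at chronic 14 d, all under 2-fold from healthy. The p threshold was passed at acute 72 h (log2 -0.60, adjusted p 0.0406), acute 7 d (-0.92, adjusted p 0.00238) and chronic 72 h (-0.82, adjusted p 0.00663). It was not passed at chronic 14 d (-0.62, adjusted p 0.066). Without acute 7 d replicate 3 the acute 7 d value was -1.01 and called. From acute 24 h to 7 d Prelp rose 2.14-fold (log2 1.10, SE 0.23, adjusted p 0.000574), and without acute 24 h replicate 1 this was 0.81, under the fold limit. Log2 Prelp and the log2 sum of 11 HSC markers correlated at 0.54 over the 27 libraries, and at 0.46 after group means were removed. The part of these markers in the Prelp differences was not tested. Prelp shares 350 exonic bases with the antisense gene Gm15851, which had 0 to 6 counts against 10731 to 85199 for Prelp.

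Osteoglycin, a short proteoglycan that takes part in fibril assembly, fell furthest at 24 h. It was at 79.8, 62, 54.7 and 67.1 CPM in healthy HSCs and 10.3, 6.34 and 5.44 CPM at acute 24 h. At chronic 24 h the libraries held 19.9, 15.2, 20.4 and 13 CPM. Both groups lay below all healthy libraries, by -3.16 (SE 0.36, adjusted p 6.35e-07) and -1.94 (SE 0.30, adjusted p 2.89e-05) on the log2 scale. The other injured libraries, from 36.4 CPM at chronic 72 h to 112 CPM at acute 72 h, were spread around the healthy range, with adjusted p of 0.334 or more. Chronic 24 h was 2.32-fold above acute 24 h (log2 1.22, SE 0.33, adjusted p 0.0107). That call was lost among higher-depth libraries alone (1.14) and without acute 24 h replicate 2 (1.12) or 3 (1.04).

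Podocan, a leucine-rich proteoglycan that restrains smooth muscle growth, was at 28, 44.9, 36.9 and 13.8 CPM in healthy HSCs and 16.3, 8.77 and 11.4 CPM at acute 24 h, where 1 healthy library fell among the injured ones. It was 2.54-fold lower there (log2 -1.34, SE 0.35, adjusted p 0.00477), a call lost with the portal fibroblast marker term (-0.99, adjusted p 0.0629). Chronic 24 h (31.3, 31.6, 32.3 and 36.4 CPM) lay 2.71-fold above acute 24 h without overlap (log2 1.44, SE 0.35, adjusted p 0.00514). Against healthy, Podn was called in no later group. Perlecan, the heparan sulfate proteoglycan of basement membranes, spread from 28.6 to 120 CPM among healthy libraries and was called in no comparison with them. It was lower at chronic 14 d (53.2, 48.6, 44.3 and 43.2 CPM) than at chronic 24 h (139, 113, 90.8 and 104 CPM), by 2.36-fold (log2 -1.24, SE 0.33, adjusted p 0.0092). Vascular smooth muscle markers fell with it, 3 of 5 being called lower (Myh11, Cnn1 and Actg2), from a summed 977 to 1357 CPM to 620 to 708 CPM. Over the 27 libraries their log2 sum and log2 Hspg2 correlated at 0.57, and at 0.55 after group means were removed, and their part in the difference was not tested.

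**Figure D4:**
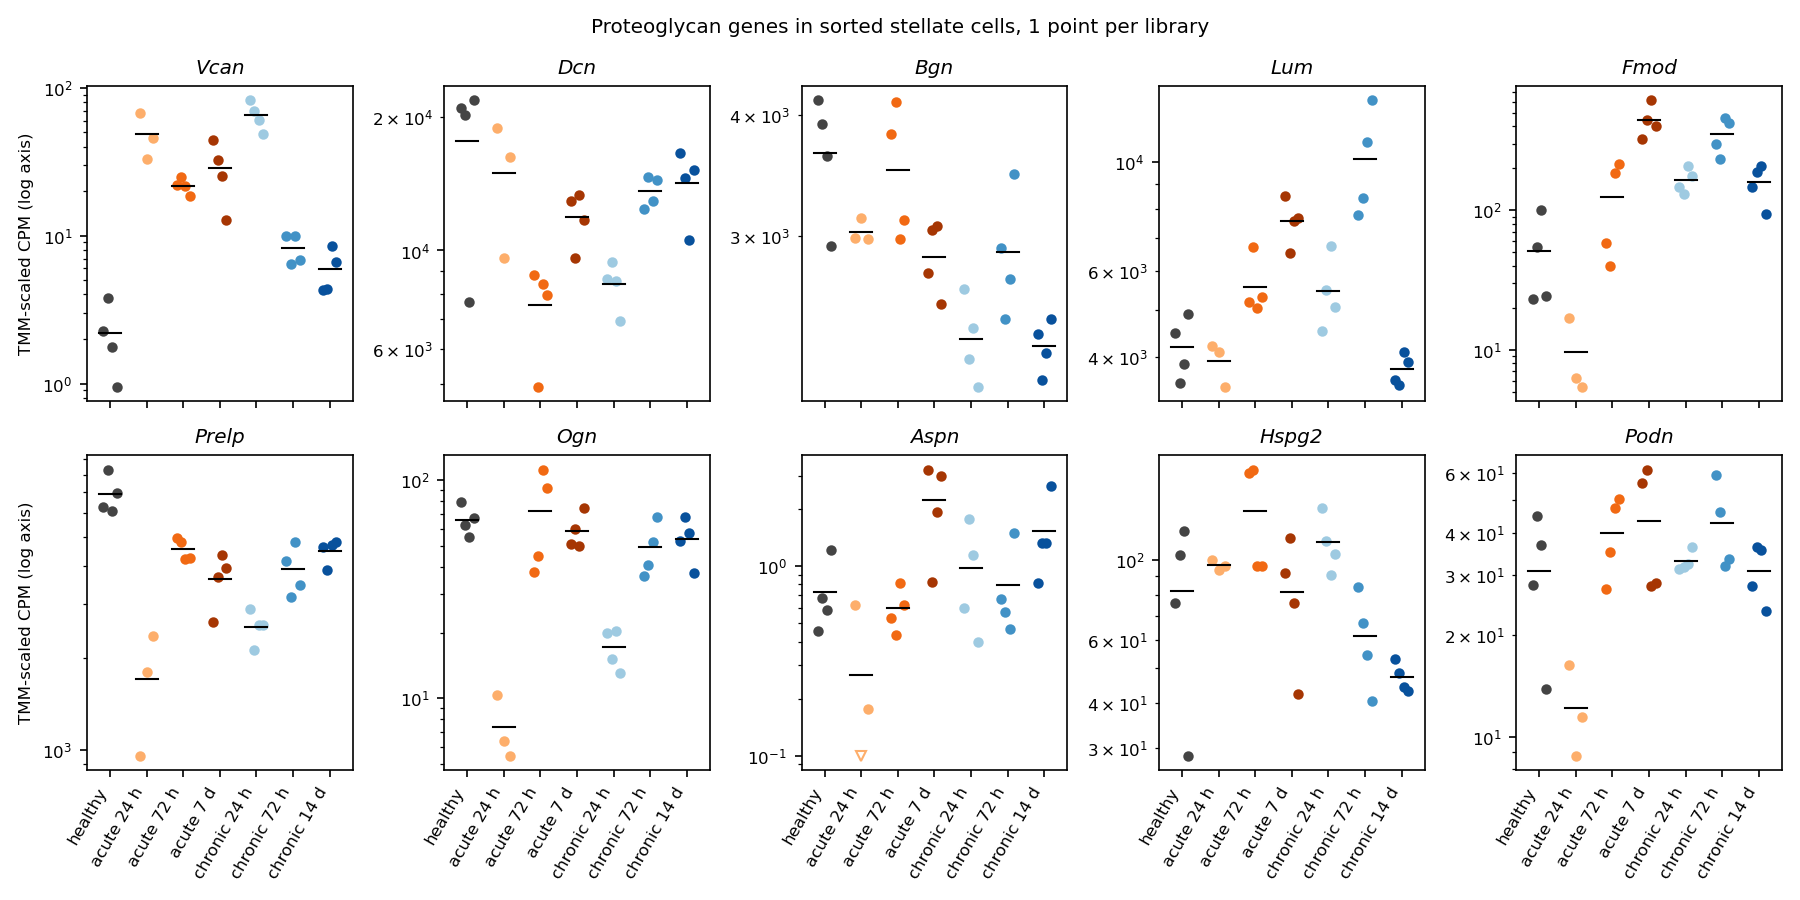
CPM of the 10 genes on log axes, 1 point per library, with a bar at the group mean; the open triangle marks a library with no Aspn count. Vcan is highest at 24 h in both courses, Ogn and Prelp are lowest there, and Fmod is lowest at acute 24 h and highest at acute 7 d.

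The first 24 h of acute and the last 24 h of chronic injury were compared to ask how a first dose differs from one on a fibrotic liver. Fmod, Ogn and Podn were called higher at chronic than at acute 24 h, 3 genes where 10.9% of all genes were called higher, and none lower (3.05%). In the same comparison 7 of 10 portal fibroblast, 4 of 6 tested mesothelial, 2 of 5 smooth muscle, 4 of 8 macrophage, 4 of 8 monocyte and neutrophil, 2 of 8 endothelial and 4 of 9 hepatocyte markers were called higher, and 1 of 11 HSC markers higher and 2 lower, while Plac8 was lower. From acute 24 h to 7 d, Fmod, Prelp, Ogn, Aspn and Podn were called higher, 5 genes where 17.8% were, and none lower (9.24%). There 9 of 10 portal fibroblast, 4 of 6 mesothelial, 7 of 8 macrophage (73 to 94.3 CPM up to 462 to 1919), 5 of 8 monocyte and neutrophil, 5 of 8 endothelial and 5 of 9 hepatocyte markers were called higher, while of the HSC markers 1 was higher and 3 lower and of the smooth muscle markers 1 was lower. From chronic 24 h to 14 d, Ogn was called higher (3.14-fold, log2 1.65, SE 0.30, adjusted p 0.000337; background 6.65%) and Vcan and Hspg2 lower (6.11%). There 5 of 11 HSC, 6 of 8 endothelial and 5 of 9 hepatocyte markers were called higher, 2 of the portal fibroblast markers higher and 2 lower, and 3 smooth muscle markers, F13a1 and Cd68 lower. The part of these markers in the 3 comparisons was not tested. The 3 comparisons share libraries with each other and with those above.

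The step from 24 h to 72 h was then compared between the courses, as an interaction. Vcan fell in both, from a mean ratio of 0.448 in acute to 0.127 in chronic injury, and the chronic step was 1.82 lower on the log2 scale (SE 0.50, adjusted p 0.02). Dcn fell to 0.505 of its level in acute injury and rose to 1.62 of it in chronic injury, a difference of 1.68 (SE 0.38, adjusted p 0.00515). Fmod rose 12.9-fold in acute and 2.13-fold in chronic injury, a difference of -2.60 (SE 0.75, adjusted p 0.0262), and Ogn 9.77-fold and 2.87-fold, a difference of -1.76 (SE 0.44, adjusted p 0.0108). That is 1 gene called higher, where 2.28% of all genes were, and 3 lower, where 6.46% were. Of the markers, 3 of 10 for portal fibroblasts, 5 of 8 for monocytes and neutrophils and 2 of 5 for smooth muscle were called lower in this interaction, as was Adgre1 for macrophages. Called higher were 2 of 11 for HSCs, Plac8, Cdh5 and Cyp2e1, and the part of these markers was not tested. Among higher-depth libraries alone only the Dcn call held, the others being -1.46, -2.42 and -1.36. Vcan was also not called without acute 24 h replicate 2 (-1.60) or chronic 72 h replicate 2 (-1.62). Fmod was not called with no filter on low counts (-2.47) or without acute 24 h replicate 2 (-2.37) or 3 (-2.32), acute 72 h replicate 3 (-2.22) or 4 (-2.10), chronic 24 h replicate 4 (-2.45) or chronic 72 h replicate 2 (-2.33).

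Several of the genes sit beside each other in the genome (GRCm38, GENCODE M21). Ogn (chr13:49608046-49624501) and Aspn (chr13:49544443-49567565) belong to a row of 4 leucine-rich proteoglycan genes on the plus strand of chromosome 13, in the order Ecm2, Aspn, Omd and Ogn, with gaps of 11.7, 14.9 and 15.2 kb. Ecm2 encodes an extracellular matrix protein and Omd encodes osteomodulin. Ecm2 fell from 19.5 to 31.2 CPM in healthy HSCs to 3.42 to 4.36 CPM at acute 24 h (log2 -2.74, SE 0.25, adjusted p 4.18e-08). Omd fell from 3.88 to 6.16 CPM to 0.534 to 1.04 CPM (log2 -2.80, SE 0.48, adjusted p 9.77e-05), beside -3.16 for Ogn and -1.43, not called, for Aspn. At chronic 24 h the differences were -1.89 for Ecm2, -2.83 for Omd and -1.94 for Ogn, all called, and 0.40 for Aspn. At acute 72 h Ecm2 (-1.15) and Omd (-1.27) were still called lower, while Ogn was at 0.13. From chronic 24 h to 14 d, Ecm2 (1.94), Omd (2.69) and Ogn (1.65) were called higher together. Aspn and Ogn lie within Cenpp on the opposite strand, which had 0 to 23 counts and shares 7 exonic bases with Aspn and none with Ogn.

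**Figure D5:**
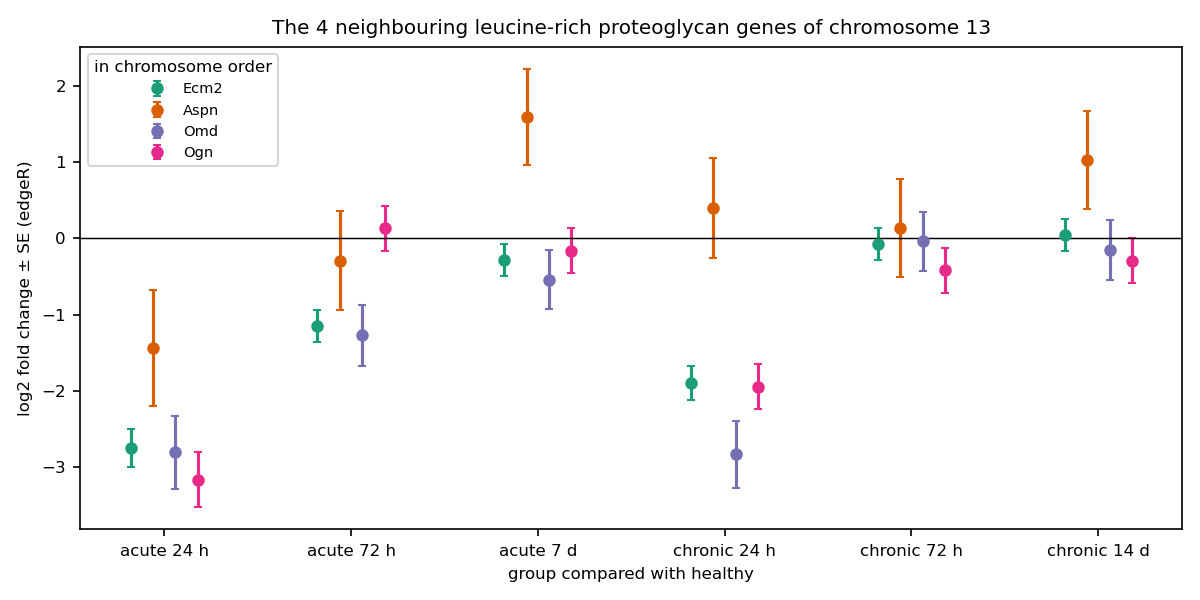
Log2 fold change against healthy HSCs (± SE, edgeR) of the 4 neighbouring genes in the 6 injured groups. Ecm2, Omd and Ogn lie from -1.89 to -3.16 at acute and chronic 24 h and near 0 at chronic 72 h and 14 d, and Aspn, at 0 to 40 counts, has the widest errors.

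Dcn (chr10:97479609-97518143) and Lum (chr10:97565128-97572703) lie 47 kb apart on chromosome 10, followed by Kera and Epyc. The neighbours were near silent: Kera had no count in any of the 27 libraries, a limit of 3 counts each, and Epyc had at most 2. Dcn and Lum did not follow each other, with a correlation of -0.13 over the 27 libraries in log2 CPM. Prelp (chr1:133910304-133921414) and Fmod (chr1:134037254-134048277) lie 116 kb apart on chromosome 1 on opposite strands, with Optc, which had at most 17 counts, 2.31 kb from Prelp. Vcan (chr13:89655312-89742509, minus strand) lies 43.7 kb from Hapln1, the gene of a link protein that ties versican to hyaluronan, which had 0 to 31 counts. Bgn lies at chrX:73483602-73495933, Hspg2 at chr4:137468769-137570630 and Podn at chr4:108014791-108096445. The span of Podn overlaps that of Scp2, without a shared exonic base.

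Among the 45 pairs of the 10 genes, the closest patterns over the 27 libraries were Fmod and Podn (r = 0.76), Prelp and Ogn (0.75), and Vcan and Prelp (-0.75). With group means removed these were 0.44, -0.35 and -0.10, so the Prelp and Ogn pair moved together between groups and not within them. Of all genes with a mean of at least 3 in log2 CPM, those likest Vcan were Slc16a3, a lactate exporter, Steap2, Axl, a receptor tyrosine kinase, Slit3 (each 0.92) and Fblim1 (0.91). Those likest Dcn were Sult1a1 and Actr8 (0.75), Fbxl4 (0.74), Dnajc7 and 2810013P06Rik (0.72). The libraries share groups, so these values describe likeness only.

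Genes that act on these core proteins were followed as lists. Of 6 tested ADAMTS genes known to cleave versican, 2 were called higher and 1 lower at acute 24 h, and 3 higher and none lower at chronic 24 h. Over all genes tested, 9.41% were called higher and 12.5% lower at acute 24 h, and 11.2% and 8.11% at chronic 24 h. Adamts4 rose from 34.5 to 160 CPM in healthy HSCs to 959 to 1045 CPM at acute 24 h (log2 3.44, SE 0.47, adjusted p 6.38e-06) and was at 370 to 522 CPM at chronic 24 h (log2 2.29, SE 0.43, adjusted p 0.000291). Adamts15 was called higher in all 6 comparisons with healthy HSCs, by 1.12 to 2.0 on the log2 scale. Adamts5 was lower at acute 24 h (log2 -2.13, SE 0.29, adjusted p 6.47e-06), and Adamts8 was higher at chronic 24 h (log2 2.82, SE 0.84, adjusted p 0.0123). The list medians were 0.91 and 0.70, against -0.12 and -0.03 over all genes.

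Of 16 enzymes that build chondroitin and dermatan sulfate, the chains of versican, decorin and biglycan, 1 was called higher and 3 lower at acute 24 h (background 9.41% and 12.5%), and 3 higher and 3 lower at chronic 24 h (11.2% and 8.11%). Chst11, a chondroitin 4-O-sulfotransferase, was called higher in all 6 comparisons with healthy, from 2.86 at chronic 14 d to 6.45 at chronic 24 h. Chsy3, which extends the chain, was 2.30 higher at chronic 24 h (SE 0.29, adjusted p 2.23e-06), while Csgalnact1, which starts it, was lower by -1.83 (SE 0.27, adjusted p 1.85e-05). Dse, which turns chondroitin into dermatan sulfate, was lower at acute 24 h (log2 -1.47, SE 0.23). Of 4 tested enzymes of keratan sulfate, the chain of lumican and fibromodulin, 2 were lower and none higher at acute 24 h, and 2 (B3gnt7 and Chst2) higher and none lower at chronic 24 h. From acute 24 h to 7 d, where 17.8% of all genes were called higher, 3 of the 4 rose, among them Chst1 (log2 2.36, SE 0.40, adjusted p 7.37e-05) and B4galt4 (log2 1.5, SE 0.19).

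Of 19 tested heparan sulfate enzymes, which serve perlecan, 3 were higher and 4 lower at acute 24 h (background 9.41% and 12.5%), and 5 higher and 4 lower at chronic 24 h (11.2% and 8.11%), led by the sulfotransferase Hs6st2 (log2 6.26, SE 0.69, adjusted p 4.05e-07). Of 5 other basement membrane proteoglycans, Col15a1 was called higher in all 6 comparisons with healthy, from 1.18 to 3.2 CPM there to 99.7 to 157 CPM at chronic 24 h (log2 6.20, SE 0.43, adjusted p 5.03e-10). Of 12 tested cell surface and granule proteoglycans, 5 were lower and only Sdc4 higher at acute 24 h, while Gpc3 was higher at chronic 72 h (log2 2.81, SE 0.32, adjusted p 1.71e-06). Of 7 other leucine-rich proteoglycans tested, Tsku rose at acute 24 h (log2 2.10, SE 0.25, adjusted p 1.31e-06), where Ecm2 and Omd fell and Nyx, at low counts, was higher. Of 6 enzymes of the linker that joins chain to core, only B3galt6 was called at acute 24 h, where it was higher. Xylt1, which starts the linker, was 3.26 higher at acute 7 d than at acute 24 h (log2; SE 0.56, adjusted p 7.16e-05), while B3galt6 and B3gat3 were called lower in that comparison.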

How the data were processed

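The 10 genes and the gene lists were chosen with earlier results of these data known, so their directions are no independent support. Per the labels and the study's methods, the authors aligned single-end reads with STAR to GRCm38 and used StringTie, versions and counting strand not given in the sources used here. The table deposited by the authors holds raw counts per Ensembl gene, with 1 column for each library, none pooled and 0 unmatched. GENCODE M21 held 53274 of the 53379 gene IDs and gave symbols, positions and merged exon lengths.

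edgeR 4.0.16 in R 4.3.3 was used. Its default low-count filter kept 18758 genes, TMM factors scaled the libraries, and 1 robust quasi-likelihood model over the 7 groups used all 27 libraries. SEs were taken from the fold change and its F statistic, and 95% intervals from the t distribution with the moderated degrees of freedom. Calls needed an adjusted p below 0.05 (Benjamini-Hochberg over all genes) and a change over 2-fold. The script was tested on simulated counts. Levels are CPM, or RPKM where genes are compared with each other. Correlations used log2 values with a prior count of 2, or log2(CPM + 0.1) for marker sums. The text names the 10 genes in each comparison, per other list at most 4 called genes of large change with a mean of at least 0 in log2 CPM, genomic neighbours, and the 5 genes likest Vcan and Dcn. Alternatives were other scalings, filters and thresholds, DESeq2 1.42.0, the replicate block, depth, only the groups compared, and leaving out each library. Promoters came from RefSeq.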

Additional observations from a re-analysis of the deposited data

Results flagged for a closer look

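Dixon's test was applied to the CPM of the 10 genes in the 6 groups of 4 libraries, 60 tests of which chance marks about 5%, and 2 were marked; the group of 3 was not tested. Dcn in healthy replicate 3 was 7652 CPM, and the nearest healthy library held 20131 CPM. Lum in acute 72 h replicate 2 was 6717 CPM, and the nearest of that group held 5303 CPM. The step from 24 h to 72 h differed between chronic and acute injury, by the interaction test, for Vcan (-1.82 on the log2 scale), Dcn (1.68), Fmod (-2.60) and Ogn (-1.76). No cause of these differences was tested.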

How the results depend on the processing

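The 10 genes gave 1985 fold changes under the alternatives, of which 1901 kept their call, 40 lost it, 41 gained it and 3 reversed. The values include those of the main fit at looser thresholds, which were not recomputed and cannot lose a call. Among those whose call did not change, 68 uncalled values changed sign, none above 0.93 in size. The reversed values are Fmod with the portal fibroblast marker level as a term, an alternative added after seeing the data: -1.12 at chronic 24 h, -1.09 at chronic 72 h and -0.21 at chronic 14 d, where it was not called. With that term the genes called went from 5 to 4 at acute 24 h, 2 to 1 at acute 7 d, 5 to 2 at chronic 24 h, 3 to 0 at chronic 72 h and 2 to 0 at chronic 14 d. Calls over all genes changed as well, given here as higher and lower, first without and then with the term. They were 1765 and 2353, then 1818 and 2280, at acute 24 h. At acute 7 d they were 1732 and 1058, then 281 and 20. At chronic 24 h they were 2095 and 1522, then 706 and 437. At chronic 72 h they were 1479 and 788, then 39 and 6, and at chronic 14 d 854 and 219, then 288 and 47. No fold minimum is a setting that can only add calls, for any gene. With it the members called went from 2 to 4 at acute 7 d and from 3 to 6 from chronic 24 h to 14 d. At chronic 14 d against healthy 1 was called with no filter, 0 with depth class as a term, 0 with only the groups compared, and 0 to 2 with 1 library left out. In the interaction 1 of 4 was called among higher-depth libraries, and 2 to 5 with 1 library left out. The cause was not tested, and the last 2 kinds of fit also held fewer libraries. Calls over all genes under these settings are not given here, so these changes cannot be read as particular to the 10 genes. With group means removed, same-numbered libraries of different groups correlated at -0.17 to 0.19 (median 0.01), with 15 of 78 pairs over 0.1. Different-numbered pairs correlated at -0.33 to 0.32, with 16 of 234 over 0.1. For 8 of 27 libraries the best match had their own number. Low correlations do not exclude a shared batch, so whether libraries of the same number are paired cannot be told. With the replicate block the interaction called 6 of the 10 genes instead of 4, adding Hspg2 (-1.54) and Podn (-1.51), and the counts in the other comparisons stayed at 5, 2, 2, 5, 3, 2, 3, 5 and 3. Over all genes the interaction with the block called 442 higher and 1218 lower, against 427 and 1212 without it. Totals of 6314801 to 7580709 counts limit Vcan at chronic 14 d (32 to 71 counts) and Aspn throughout.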
